A study of Mus musculus with 12 samples.

Results

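The genes described here are 36 members of the laminin, proteoglycan and matrix glycoprotein families, listed by symbol and read from the rows of the liver count table, which held 55401 genes. They were divided into 12 basement membrane genes, 12 elastic fibre and microfibril genes, 4 proteoglycan genes, 5 matricellular genes and 3 other matrix glycoprotein genes. The list follows gene families and its rule uses no measured value, but it was drawn up with earlier results of these data known. Of the members 35 passed the filter on low counts, beside 13205 genes tested in all. The remaining member, Vcan, is described by its counts.

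RNA was sequenced from the livers of 12 female mice at 15 weeks of age, 6 iTgMir483 mice and 6 littermate controls. In the iTgMir483 mice the Rosa26 locus carried a single copy of Mir483, the microRNA gene inside Igf2, under Tet-off control by a tetracycline transactivator. The transgene came from the father in single dose and a CMV-Cre allele from every mother, on a C57BL/6J background, so the control littermates also had the Cre allele. Dams received doxycycline, which represses a Tet-off transgene, only while pregnant, so the design was for Mir483 expression after birth from a locus active in most tissues. Chow was standard. The Mir483 gene had 0 counts in each control library and from 318 to 761 counts in the iTgMir483 libraries, as the labels state.

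The extracellular matrix of the liver is thin in health. Basement membranes are sheets in which laminin trimers, each of an alpha, a beta and a gamma chain, form a network that nidogens and perlecan join to type IV collagen, whereas the sinusoids of the liver lack a continuous sheet of this kind and laminin lies mainly around vessels and bile ducts. Elastic fibres consist of elastin on a scaffold of fibrillin microfibrils, to which fibulins, emilins and the latent TGF-beta binding proteins attach. Small proteoglycans such as decorin bind collagen fibrils, and matricellular proteins such as thrombospondins and SPARC act on cells and on growth factors more than as structural parts.

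In iTgMir483 livers 11 of the 35 tested members were called higher and 0 were called lower, taking as called an adjusted p under 0.05 with more than a 1.5-fold change in edgeR's quasi-likelihood test. Over all 13205 genes tested, 8.44% were called higher and 2.73% were called lower by the same rule. The higher members were Lama5, Lamb1, Nid1, Nid2 and Hspg2 of the basement membrane, Fbn1, Emilin1 and Ltbp3 of the elastic fibre and microfibril group, and the matricellular genes Thbs1, Thbs2 and Sparc. Of the members, 31 of 35 had a log2 fold change above 0, and their median was 0.42 against 0.01 over all genes tested. No fall was detected: 0 members had an unadjusted p under 0.05 in that direction, and DESeq2 and limma-voom also called 0 lower. Mgp, Ecm1, Efemp1 and Lama3 had log2 estimates below 0 (-0.31, -0.19, -0.19 and -0.04), each with a 95% interval on both sides of 0. DESeq2 called the same 11 members higher and limma-voom called 10 of them. The 1.5-fold rule applies to the estimate alone. When the fold change itself was tested against 1.5 (glmTreat), 1 member passed, Thbs1, beside 178 higher genes in all.

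**Figure D1:**
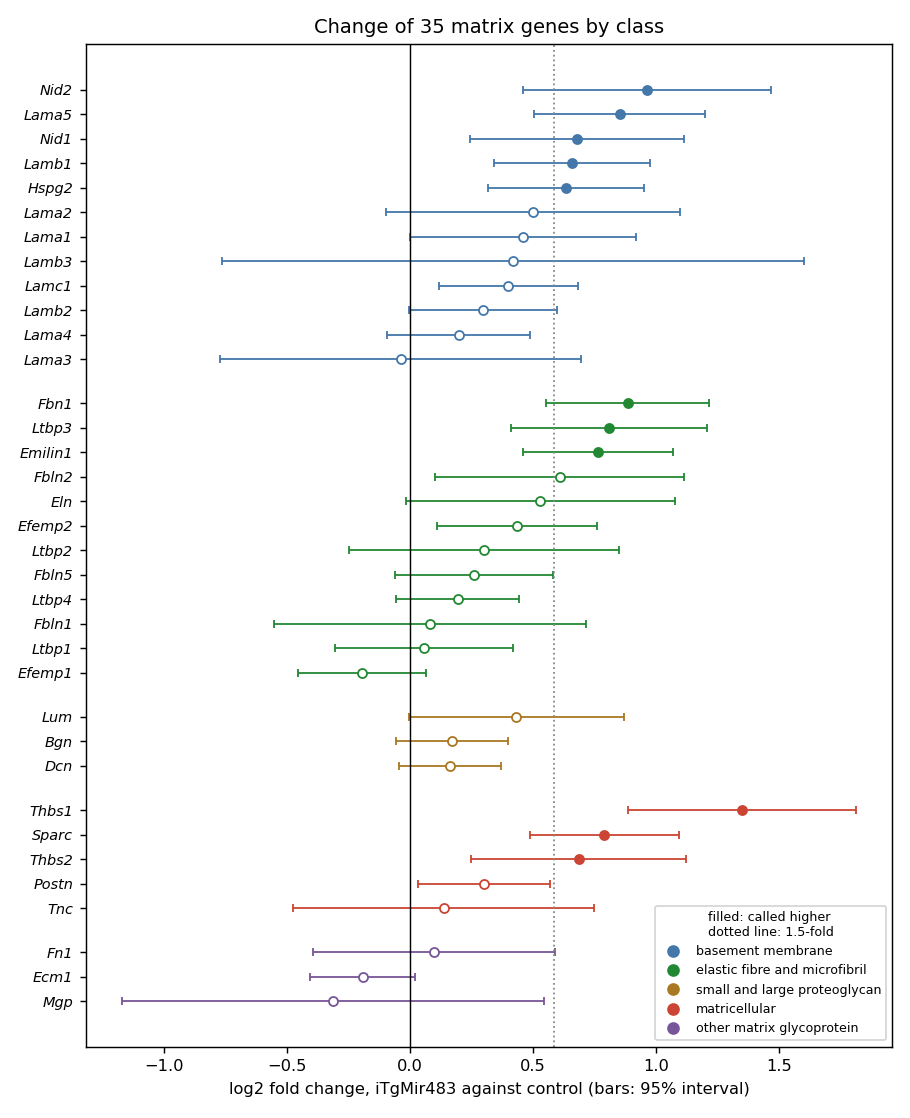
Log2 fold change of iTgMir483 against control livers (x axis, with 95% intervals from the quasi-likelihood fit) for the 35 tested members (y axis), coloured by class, with filled points for members called higher. The 11 filled points lie between 0.63 and 1.35, in the basement membrane, elastic fibre and matricellular classes, and the proteoglycan and other glycoprotein classes hold none.

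The classes are described by their counts. The basement membrane class had 5 of 12 members called higher and a median log2 fold change of 0.48, the elastic fibre class 3 of 12 and 0.37, and the matricellular class 3 of 5 and 0.69. No proteoglycan (0 of 3 tested, median 0.17) and no other glycoprotein (0 of 3, median -0.19) was called in either direction, none of these 6 had an unadjusted p under 0.05, and DESeq2 and limma-voom called 0 of them. The differences between classes were not tested.

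The product of the transgene gives mature microRNAs whose sequences are shown first, because the members' untranslated regions were searched for matches to them. The sequences are those of RefSeq (GRCm38.p6, chr7:142654932-142654952 and chr7:142654968-142654989, minus strand), with bases 2 to 8, the seed, in capitals.
miR-483-3p: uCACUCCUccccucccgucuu
miR-483-5p: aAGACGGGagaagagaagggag

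A match to the miR-483-3p seed (AGGAGTG) lay in the longest annotated 3′ untranslated region of 4 of 35 tested members, 11.4%, against 12.6% of the 12098 tested genes that had such a region. Of the 11 members called higher, 0 held one, and of the 35 members 0 held a match to the miR-483-5p seed (CCCGTCT), against 3.26% of the tested genes. The members' 3′ untranslated regions were shorter, with a median of 652 bases against 1164. Each of the 4 sites is printed with 10 bases on either side, 5′ to 3′ on the transcript, with the match in capitals, in Efemp2 (chr19:5482437-5482443, plus strand), Fbln1 (chr15:85285200-85285206, plus strand), Fbln5 (chr12:101747542-101747548, minus strand) and Lamb3 (chr1:193343804-193343810, plus strand), all GRCm38.
Efemp2: ccagcccctaAGGAGTGtttatctatt
Fbln1: tggctcagccAGGAGTGtaccccgccc
Fbln5: tcttggactcAGGAGTGttatttgccc
Lamb3: aaacggaacaAGGAGTGatgatgtatg

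The Lamb3 match was the single 8mer, followed by an A, a kind held by 3.44% of the tested genes. None of these 4 genes was called in either direction, with log2 fold changes of 0.43 in Efemp2, 0.08 in Fbln1, 0.26 in Fbln5 and 0.42 in Lamb3. A match describes the letters only, and conservation was not examined.

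Promoter windows from 250 bases before to 50 bases after the transcript start were in the RefSeq table (GRCm38.p6) for 24 of the 35 tested members, 34 windows in all, and for 9 of the 11 members called higher. The GC box (GGGCGG on either strand), the letters bound by factors of the Sp family, lay in 61.8% of the members' windows and in 35.7% of all 32851 windows. The set of all windows was not limited to genes tested here, and windows of the same gene can overlap. Whether the gap belongs to these members was not tested. Of the 9 windows of members called higher, 5 (55.6%) held it, those of Hspg2, Lama5, Lamb1, Fbn1 and Nid1. The other motifs searched on both strands were TATAAA, in 14.7% of the members' windows against 13.6% of all, the AP-1 letters TGACTCA, in 5.88% against 5.2%, and the TEAD letters GGAATG, in 5.88% against 14.7%. The windows of Hspg2 (chr4:137468553-137468852, plus strand) and Lama5 (chr2:180225810-180226109, minus strand) are printed because they held the most GC boxes among the members called higher, 5 and 4, and that of Thbs2 (chr17:14694213-14694512, minus strand) as the called member with TATAAA. Capitals mark the motif letters found, on either strand.
Hspg2: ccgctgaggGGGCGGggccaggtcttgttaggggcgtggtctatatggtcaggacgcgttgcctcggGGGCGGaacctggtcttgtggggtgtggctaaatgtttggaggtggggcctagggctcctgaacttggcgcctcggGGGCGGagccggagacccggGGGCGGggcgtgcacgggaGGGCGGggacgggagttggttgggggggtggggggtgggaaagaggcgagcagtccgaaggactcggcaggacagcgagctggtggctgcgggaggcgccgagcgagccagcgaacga
Lama5: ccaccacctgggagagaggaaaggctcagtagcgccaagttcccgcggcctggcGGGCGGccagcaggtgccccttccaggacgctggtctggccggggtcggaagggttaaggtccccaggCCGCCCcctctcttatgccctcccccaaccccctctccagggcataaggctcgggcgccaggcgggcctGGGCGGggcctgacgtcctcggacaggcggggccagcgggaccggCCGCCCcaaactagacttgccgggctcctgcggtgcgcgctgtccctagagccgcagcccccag
Thbs2: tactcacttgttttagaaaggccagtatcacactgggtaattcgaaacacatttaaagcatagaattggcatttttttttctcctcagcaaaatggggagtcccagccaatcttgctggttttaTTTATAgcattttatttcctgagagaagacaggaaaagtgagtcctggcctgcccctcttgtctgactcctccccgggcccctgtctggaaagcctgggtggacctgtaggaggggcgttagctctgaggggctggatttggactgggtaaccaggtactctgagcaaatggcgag

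The basement membrane members were examined by chain and linker. Laminin alpha chains carry the sites for cell receptors, and Lama5 (ENSMUSG00000015647, chr2:180176373-180225859) encodes the alpha-5 chain. Lama5 ranged from 6.14 to 11.9 CPM (counts scaled to a common library size) in controls with a median of 8.73, and from 11.7 to 19.2 in iTgMir483 livers with a median of 16.1. Of the 6 iTgMir483 libraries 5 lay above every control, and the sixth, replicate 1, lay just under the highest control. The fold change was 1.81 (log2 0.85 ± 0.16, SE, adjusted p = 0.00331 by edgeR), and it was called under all 20 alternatives of normalization, filter, tool, block and left-out library.

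Lamb1 (ENSMUSG00000002900, chr12:31265234-31329644), the beta-1 chain, ranged from 10.04 to 14.3 CPM in controls with a median of 12.9, and from 12.9 to 25.3 CPM in iTgMir483 livers with a median of 19.9. It rose 1.58-fold (log2 0.66 ± 0.15, SE, adjusted p = 0.00784), with 5 of 6 iTgMir483 libraries above every control. Without iTgMir483 replicate 6 its log2 fold change was 0.58, under the fold rule.

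Nid1 and Nid2 encode the nidogens, which link the laminin and collagen IV networks. Nid2 (ENSMUSG00000021806, chr14:19751265-19811787) ranged from 3.75 to 9.08 CPM in controls (median 5.26) and from 6.95 to 17.7 CPM in iTgMir483 livers (median 10.4), a 1.95-fold rise (log2 0.96 ± 0.24, SE, adjusted p = 0.0120). Nid1 (ENSMUSG00000005397, chr13:13437551-13512269) ranged from 16.5 to 23.3 CPM in controls (median 20.7) and from 18.5 to 46.7 CPM in iTgMir483 livers (median 31.8), a 1.60-fold rise (log2 0.68 ± 0.20, SE, adjusted p = 0.0316). Opposite-strand Rtraf overlaps 8.45% of the Nid2 exon bases. The Nid1 groups overlapped, since 2 iTgMir483 libraries, replicates 1 and 2, lay within the control range. Its call was the least stable of the class and was lost under 8 of 20 alternatives, where the adjusted p reached 0.0750.

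Hspg2 (ENSMUSG00000028763, chr4:137468769-137570630) encodes perlecan, the heparan sulfate proteoglycan that spans the basement membrane. It ranged from 28.0 to 39.7 CPM in controls with a median of 30.6, and from 35.1 to 61.4 CPM in iTgMir483 livers with a median of 55.4. The rise was 1.55-fold (log2 0.63 ± 0.15, SE, adjusted p = 0.00921). Here 4 iTgMir483 libraries lay between 55.2 and 61.4 CPM and the other two, replicates 1 and 2, lay within the control range. Without iTgMir483 replicate 3 its log2 fold change was 0.57, under the fold rule.

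**Figure D2:**
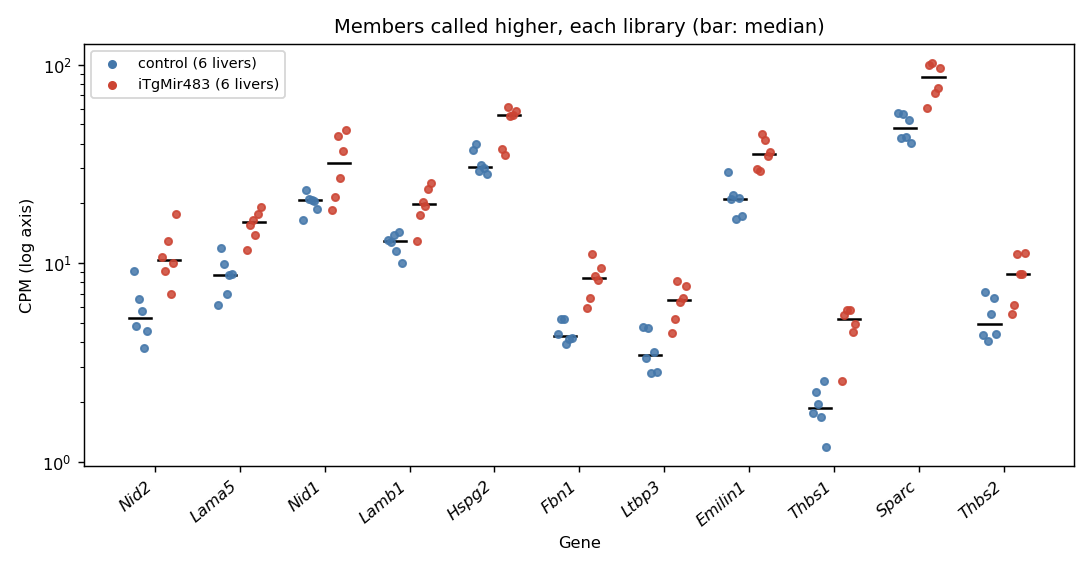
CPM of the 11 members called higher (y axis, log scale) in each of the 6 control and 6 iTgMir483 libraries, with a bar at the median of each group. The groups are separate for Fbn1, Emilin1, Thbs1 and Sparc and overlap in the other 7 genes.

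The remaining laminin chains were not called. Lamc1, the gamma-1 chain found in most laminins, was at 0.40 on the log2 scale (1.32-fold, adjusted p = 0.0463), past the adjusted p and short of the fold rule. Lama1 had 0.46 (95% interval -0.0010 to 0.92), Lama2 0.50 (-0.098 to 1.10), Lamb2 0.30 (-0.0046 to 0.60) and Lama4 0.20 (-0.094 to 0.49). Lama3 had -0.04 (-0.77 to 0.70) on 9 to 37 counts a library, a width that leaves a change of either sign within the interval.

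Lamb3, a beta chain of epithelial laminin, had the largest SE of the 35 tested members, 0.55 on the log2 scale. It was at 3.13 CPM in control replicate 1 and at 3.63 CPM in iTgMir483 replicate 1, whereas the other 5 controls ranged from 25.7 to 39.8 CPM and the other 5 iTgMir483 livers from 22.4 to 59.7 CPM. These same 2 libraries stood apart from the other 10 on the second principal component of all genes, at 40.8 and 37.5 against -15.6 to 1.79. Their part in the Lamb3 spread was not tested further, and the labels give no date or batch for them. With both libraries left out the Lamb3 log2 fold change was 0.42 (adjusted p = 0.210), as it was with them (0.42, adjusted p = 0.634).

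Levels per length were compared among the laminin chains as CPM per kilobase of exon. Among alpha chains Lama5 took 36.8% ± 7.53 (SD, n = 6) of the summed level in controls and 45.4% ± 6.09 in iTgMir483 livers, Lama1 26.0% ± 2.83 and 24.4% ± 8.14, and Lama4 23.8% ± 3.39 and 18.9% ± 1.48. Lamc1 was at 2.45 ± 0.283 CPM per kilobase in controls and 3.23 ± 0.6253 in iTgMir483 livers, and Lamc3, which is no member of the list, at 1.34 ± 0.509 and 4.06 ± 1.79. The alpha sum, 1.80 to 2.36 in controls and 2.58 to 3.53 in iTgMir483 livers, did not overlap between the groups, whereas the beta sum followed Lamb3 and overlapped (3.003 to 9.14 and 3.29 to 13.4). These shares are descriptions, and transcript levels are not those of the assembled trimers.

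**Figure D3:**
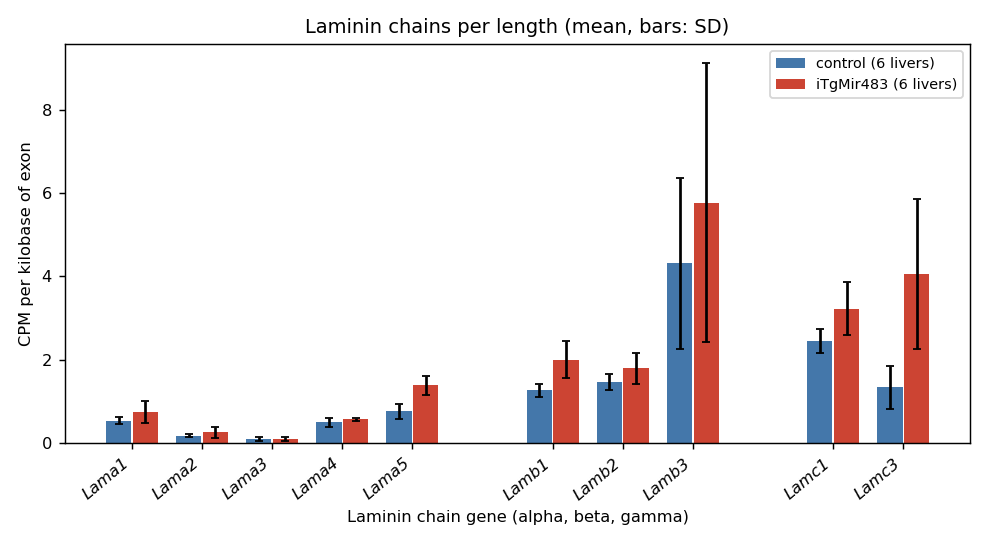
Level per length (CPM per kilobase of exon, y axis) of the laminin chain genes in control and iTgMir483 livers, as mean with SD over 6 livers; Lamc3 is shown beside Lamc1 and is not a member. Lamb3 had the highest mean and the largest SD, and Lama5, Lamb1 and Lamc3 were higher in iTgMir483 livers.

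Fibrillin-1 (Fbn1, ENSMUSG00000027204, chr2:125300594-125507993) is the main protein of microfibrils. Its CPM ranged from 3.89 to 5.23 in controls with a median of 4.29, and from 5.96 to 11.1 in iTgMir483 livers with a median of 8.42, without overlap. The rise was 1.85-fold (log2 0.89 ± 0.15, SE, adjusted p = 0.00209). An annotated gene on the opposite strand, Gm9913, overlaps 20.1% of its exon bases, and the strand setting of the counts, which bears on every such overlap, is not given in the sources used here.

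Emilin1 (ENSMUSG00000029163, chr5:30913402-30921277), a glycoprotein at the surface of elastin that binds microfibrils, ranged from 16.7 to 28.6 CPM in controls (median 21.1) and from 29.2 to 44.4 CPM in iTgMir483 livers (median 35.4). It rose 1.70-fold (log2 0.76 ± 0.14, SE, adjusted p = 0.00299), and the groups did not overlap, although the highest control, replicate 1, lay close under the lowest iTgMir483 library. Ltbp3 (ENSMUSG00000024940, chr19:5740904-5758532), which holds latent TGF-beta in the matrix, ranged from 2.80 to 4.76 CPM in controls (median 3.44) and from 4.43 to 8.15 CPM in iTgMir483 livers (median 6.53). Its rise was 1.75-fold (log2 0.81 ± 0.19, SE, adjusted p = 0.00883), with 1 iTgMir483 library, replicate 1, inside the control range.

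The other latent TGF-beta binding proteins were not called. Ltbp4, the most abundant gene of this class per length, ranged from 45.9 to 55.3 CPM in controls (median 49.1) and from 41.7 to 76.0 CPM in iTgMir483 livers (median 56.4), at a log2 change of 0.19 (95% interval -0.055 to 0.44). Ltbp1 had 0.06 (-0.30 to 0.42) and Ltbp2, with 9.34% of its exon bases under opposite-strand D030025P21Rik, had 0.30 (-0.25 to 0.85). The Ltbp3 interval, 0.41 to 1.21, overlapped those of Ltbp1, Ltbp2 and Ltbp4, and the difference between these genes was not tested.

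Elastin and the fibulins gave positive estimates that did not pass the adjusted threshold, and Efemp1 a negative one. On the log2 scale Fbln2 was at 0.61 (adjusted p = 0.0869), Eln 0.53 (adjusted p = 0.162) and Efemp2, fibulin-4, 0.43 (adjusted p = 0.0597), while Fbln5 had 0.26, Fbln1 0.08 and Efemp1, fibulin-3, -0.19. Leaving out 1 library brought 2 of them past both thresholds, Eln without iTgMir483 replicate 1 (0.67, adjusted p = 0.0465) and Fbln2 without control replicate 5 (0.75, adjusted p = 0.0455). Eln was at 3.13 CPM in iTgMir483 replicate 1 and between 4.54 and 11.2 CPM in the other 5 iTgMir483 livers.

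Decorin (Dcn), which binds collagen fibrils and TGF-beta, was the most abundant proteoglycan per length, at 38.5 CPM per kilobase in controls. Its CPM ranged from 185.8 to 270.7 in controls (median 222.1) and from 217.2 to 277.9 in iTgMir483 livers (median 251.5), and 1 iTgMir483 library lay above every control. The log2 fold change was 0.16 (95% interval -0.043 to 0.37, adjusted p = 0.255), an interval below 1.5-fold. Biglycan (Bgn) had 0.17 (-0.055 to 0.40) and lumican (Lum), of the same leucine-rich family, 0.43 (-0.0039 to 0.87, adjusted p = 0.152). Versican (Vcan), the large proteoglycan of the list, had at most 11 counts in a library and none in 2 control libraries. Its mean was 0.101 ± 0.117 CPM (SD, n = 6) in controls and 0.291 ± 0.254 in iTgMir483 livers, and a two-sided exact permutation test over all assignments of the 12 libraries gave p = 0.0758, where the smallest possible is 0.0022.

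Thrombospondin-1 (Thbs1, ENSMUSG00000040152, chr2:118111876-118127133), a matricellular protein that can activate latent TGF-beta, had the largest rise among the members. Control replicates 1 to 6 had 1.75, 2.24, 1.95, 1.67, 2.54 and 1.19 CPM, and iTgMir483 replicates 1 to 6 had 2.54, 5.49, 5.81, 5.78, 4.51 and 4.95 CPM. The groups did not overlap, but iTgMir483 replicate 1 was almost level with the highest control. The fold change was 2.55 (log2 1.35 ± 0.22, SE, adjusted p = 0.00124). Counts were low, from 13 to 97 a library.

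Thbs2 (ENSMUSG00000023885, chr17:14665500-14694235) encodes the related thrombospondin-2 and ranged from 4.04 to 7.12 CPM in controls (median 4.96) and from 5.52 to 11.3 CPM in iTgMir483 livers (median 8.84). It rose 1.61-fold (log2 0.69 ± 0.20, SE, adjusted p = 0.0308), with 4 of 6 iTgMir483 libraries above every control. The call was lost under 8 of 20 alternatives, with adjusted p up to 0.0723.

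Sparc (ENSMUSG00000018593, chr11:55394500-55423183), a collagen-binding matricellular protein, was the most abundant of its class per length. It ranged from 40.4 to 57.3 CPM in controls (median 47.8) and from 60.1 to 101.6 CPM in iTgMir483 livers (median 86.2), with no overlap. The rise was 1.73-fold (log2 0.79 ± 0.14, SE, adjusted p = 0.00237). Periostin (Postn) was at 0.30 on the log2 scale (95% interval 0.033 to 0.57, adjusted p = 0.107) and tenascin C (Tnc) 0.14 (-0.47 to 0.75) on 9 to 28 counts.

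Fibronectin (Fn1), an adhesive glycoprotein that hepatocytes release into plasma, was the most abundant member per length, with 43.9% of the summed level of the 36 genes in controls. Together with Ecm1 and Dcn it made up 78.1% of that sum in controls and 72.5% in iTgMir483 livers. Fn1 ranged from 1581 to 2019 CPM in controls (median 1928) and from 885.7 to 3365 CPM in iTgMir483 livers (median 1952). Its CV was 8.36% in controls and 39.1% in iTgMir483 livers, because replicate 2 was lowest and replicate 4 highest of all 12. The log2 fold change was 0.10 (95% interval -0.39 to 0.59, adjusted p = 0.80), and it turned to -0.11 without iTgMir483 replicate 4. Ecm1, a secreted glycoprotein known to restrain TGF-beta activation in liver, had -0.19 (-0.41 to 0.022, adjusted p = 0.196), and Mgp, the inhibitor of calcification, -0.31 (-1.17 to 0.55) on 6 to 63 counts.

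Every iTgMir483 library lay above every control in 4 members, Fbn1, Emilin1, Thbs1 and Sparc, and below every control in 0 (DESeq2 and limma-voom called 0 members lower). Over all genes tested, 5.09% were separate in the upward direction and 2.83% in the downward direction.

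**Figure D4:**
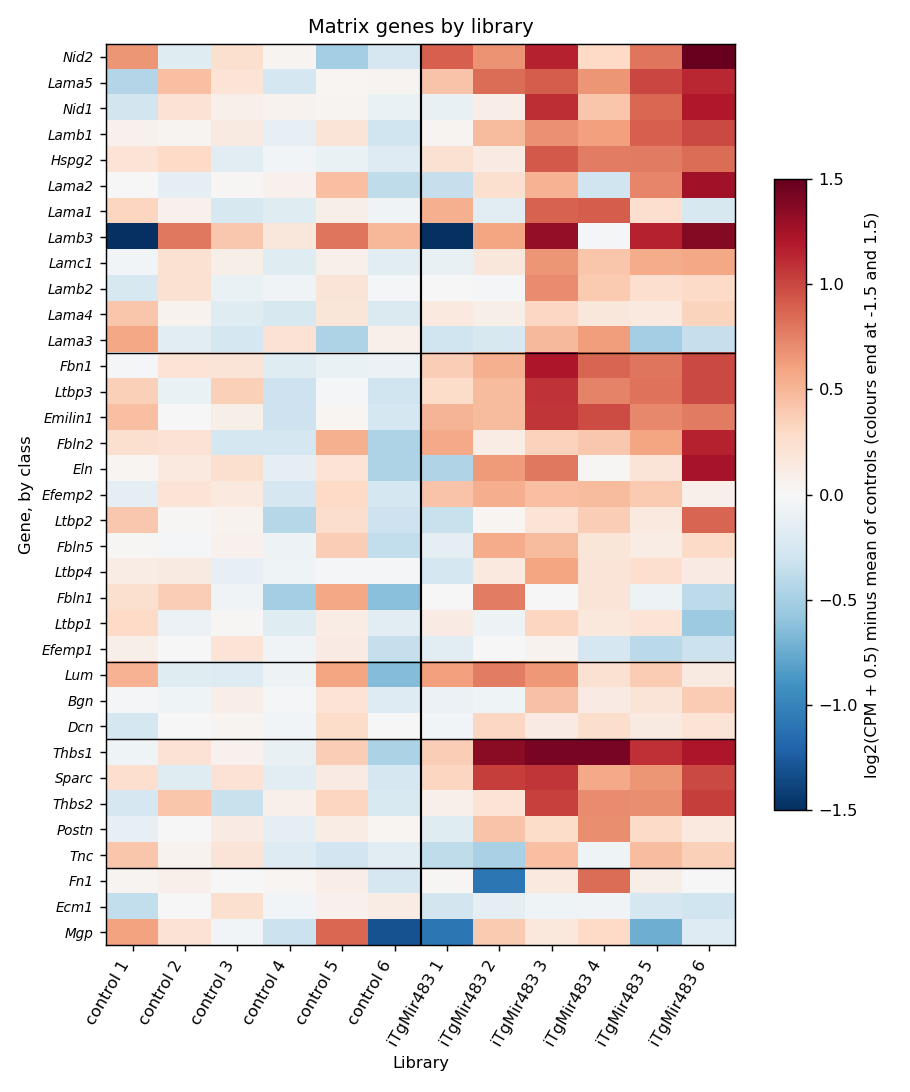
Difference of log2(CPM + 0.5) from the mean of the 6 controls for the 35 tested members (rows, by class) in each library (columns), with colours ending at 1.5 in either direction. iTgMir483 replicates 3 and 6 are the reddest columns, iTgMir483 replicate 1 is close to the controls for many members, and Lamb3 is lowest in replicate 1 of both groups.

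The iTgMir483 livers differed among themselves. Replicate 1 was the lowest of the 6 in 8 of the 11 members called higher and in 19 of the 35 tested members, whereas replicates 3 and 6 were highest in 6 and 5 of the 11. The mean log2(CPM + 0.5) of the 11 called members, relative to the control mean, was 0.31 in replicate 1, 0.57 in replicate 2 and 0.73 to 1.07 in the other 4, against -0.22 to 0.13 in controls. For the 24 tested members that were not called, it ranged from -0.18 to 0.43 in iTgMir483 livers and from -0.24 to 0.24 in controls. With both replicate 1 libraries left out, the same 11 members were called.

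Other genes of the same structures were read from lists of 80 tested genes. Of the other basement membrane genes 10 of 17 were called higher and 1 lower, a higher share than that of all genes, with a median log2 fold change of 0.72. DESeq2 called 10 of these genes higher and 2 lower, and limma-voom 7 higher and 2 lower. Col15a1 and Col4a5, collagen chains of basement membranes, rose by 1.47 ± 0.20 and 1.80 ± 0.31 (log2, SE, adjusted p = 0.00045 and 0.00177). Hemicentin-1 (Hmcn1) rose by 0.996 ± 0.19 (adjusted p = 0.00348) and the laminin chain Lamc3 by 1.60 ± 0.33 (adjusted p = 0.00455). The gene called lower by edgeR was nephronectin (Npnt), an integrin ligand, with -1.28 ± 0.39 (log2, SE, adjusted p = 0.0351), named after its value was seen.

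Among receptors for laminin and matrix, 5 of 27 were called higher and 1 lower. Itgb4, the beta-4 integrin that binds laminin, rose by 1.25 ± 0.20 on the log2 scale (SE, adjusted p = 0.00141), the laminin alpha-5 receptor Bcam 0.95 ± 0.18 (adjusted p = 0.00335), syndecan-3 (Sdc3) 1.05 ± 0.20 (adjusted p = 0.00380) and the collagen receptor Ddr1 1.10 ± 0.26 (adjusted p = 0.0108). Of the other matricellular and adhesive genes 2 of 14 were called higher, Spp1 (1.31 ± 0.18, adjusted p = 0.00051) and Tgfbi (0.99 ± 0.15, adjusted p = 0.00104). Of 11 other elastic fibre genes and 11 other proteoglycan genes 0 were called in either direction by edgeR, DESeq2 or limma-voom. Of these, 1 and 0 had an unadjusted p under 0.05, and that elastic fibre gene also passed the adjusted p but not the fold rule.

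Marker genes of some liver cell types differed between the groups and were measured beside these results. The 10 markers of stellate cells, which make much of the liver's matrix, summed to 177.2 to 242.8 CPM in controls and 248.4 to 329.5 CPM in iTgMir483 livers. All 10 estimates were above 0 and 1 marker was called (Tcf21). Of the 10, 6 had an unadjusted p under 0.05. Rgs5 (log2 0.54, adjusted p = 0.00304) and Hgf (0.57, adjusted p = 0.00565) passed the adjusted p but not the fold rule. In these 3 genes every iTgMir483 library lay above every control, as in 5.09% of all genes tested. Lrat had the smallest estimate, 0.04 (log2, adjusted p = 0.835). Of the 7 Kupffer cell and macrophage markers 6 were called higher (275.5 to 401.9 CPM against 423 to 1129), and of the 6 tested bile duct markers 3 (21.3 to 46.7 against 61.3 to 90.8). Spp1, also counted above among the adhesive genes, made up most of the bile duct sum. Its means were 25.6 of 32.2 CPM in controls and 63.5 of 75.0 CPM in iTgMir483 livers. Epcam and Krt7 were also called higher (log2 1.41 and 1.35, adjusted p = 0.00454 and 0.00837). Cldn7 had 1.07 (adjusted p = 0.055), and Krt19 and Sox9 had 0.10 and 0.26 (adjusted p = 0.819 and 0.411). All 6 tested bile duct estimates were above 0, with a median of 1.19. Vascular endothelium markers summed to 78.2 to 94.4 CPM against 92.8 to 153.1 and had 0 of 6 called, sinusoidal endothelium to 382.7 to 468 against 334.9 to 450.2 with 0 of 8, and smooth muscle to 96.5 to 162 against 112 to 196 with 0 of 4. The unadjusted p was under 0.05 for 3, 1 and 1 of these. Among the vascular endothelium markers 5 of 6 estimates were above 0 (median 0.39). Pecam1 passed the adjusted p but not the fold rule (log2 0.42, adjusted p = 0.024). Mylk made up most of the smooth muscle sum (means of 108.8 of 132.2 CPM in controls and 135.2 of 151.2 in iTgMir483 livers). Its log2 estimate was 0.31, whereas those of Acta2, Tagln and Myh11 were -0.60, -0.26 and -0.63. Portal fibroblast markers had 2 of 6 called higher and 1 lower (25.1 to 82.7 against 31.0 to 55.8). Mesothelium markers had 0 of 4 called (5.66 to 14.1 against 3.44 to 19.9, with 0 at an unadjusted p under 0.05). Of the 7 hepatocyte markers, 6 had estimates below 0 (median -0.29) and 1 was called lower, Ass1 (log2 -1.04, adjusted p = 0.00303). Their sums were 129500 to 175300 CPM in controls and 65890 to 138600 CPM in iTgMir483 livers. Alb made up most of these sums, with means of 111700 of 146700 CPM in controls and 75960 of 106100 CPM in iTgMir483 livers. Its log2 estimate was -0.56 ± 0.54 (SE, adjusted p = 0.505). Exocrine pancreas and adipocyte markers were near 0, at most 1.02 and 2.34 CPM in sum, with Cpa1, Cel and Lep at 0 in every library. The part of these markers in the members' values was not tested, and in whole liver more cells of a type and more RNA per cell cannot be told apart.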

How the data were processed

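The titles gave each library's group and replicate number. Per the labels and the study's methods, the authors aligned stranded poly(A) reads to GRCm38 with STAR and deposited unnormalized counts for 55401 genes; the strand column is not given in the sources used here. No row lacked a gene and every value column belonged to a sample. Library totals ranged from 12244123 to 30431286.

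Genes were filtered with filterByExpr, scaled by TMM and tested by quasi-likelihood in edgeR 4.0.16 (with limma 3.58.1 under R 4.3.3), with no covariate. Benjamini-Hochberg adjustment covered all 13205 genes tested, and a call needed both an adjusted p below 0.05 and more than a 1.5-fold change. The script was tested on simulated data. Each SE was obtained from the log2 estimate and its F statistic. Symbols, positions and exon lengths came from GENCODE M21.

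All 36 members are named, with ranges for called members and the most abundant of each class, and up to 4 called genes of each related list by smallest p. Members and lists were chosen with earlier results of these data known, and the study itself named matrix organization from these libraries, so neither is independent evidence. The labels say only that replicates are separate samples, so p-values measure the spread between these libraries. Alternatives included DESeq2 1.42.0. A gene of a related list is not reported here by name and remains in the counts.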

Additional observations from a re-analysis of the deposited data

Results flagged for a closer look

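Each of the 35 tested members was examined for a single library far from the other 5 of its group, in CPM, by Dixon's ratio of the gap to the range, and 3 of 70 groups passed the 95% limit, where chance gives about 3.5. Fn1 was at 1581 CPM in control replicate 6, against 1882 to 2019 CPM in the other controls (ratio 0.687). Efemp2 was at 3.48 CPM in iTgMir483 replicate 6, against 4.44 to 4.99 CPM in the others (ratio 0.638). Fbln2 was at 5.49 CPM in iTgMir483 replicate 6, against 2.42 to 3.57 CPM in the others (ratio 0.627).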

How the results depend on the processing

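The number of members called higher was 11, and it was 11 with RLE size factors, with all genes that had a count, with at least 10 counts in every library, with DESeq2 and with the legacy dispersion, 10 with limma-voom, and 8 to 12 when each library was left out in turn (8 without iTgMir483 replicate 3 or 6, 12 without iTgMir483 replicate 1). The basement membrane count of 5 fell to 3 in each of those fits with 8. The count over all members was 12 with the adjusted p alone and 1 with glmTreat at 1.5-fold, where all genes gave 237 calls; the adjusted p alone gave 2484 of all genes. The number of members called lower was 0 under every alternative. With the replicate number as a block, 10 members were called higher, Thbs2 being lost. Deviations of same-numbered libraries correlated at 0.471, 0.0251, 0.0452, 0.0284, 0.182 and 0.053 for replicates 1 to 6. The value was largest for the replicate 1 libraries, and whether the numbers pair the livers was not tested further. Counting 8mer matches in place of 7mer matches left 1 member with a miR-483-3p seed match. Class medians changed by less than the replicate spread. In the tally by member, glmTreat and the adjusted p alone were left out. Over its other alternatives, 18 calls were lost (8 each for Nid1 and Thbs2, 1 each for Lamb1 and Hspg2) and 2 were gained. Signs turned for 4 members that were not called: Lama3 reached 0.232 with both replicate 1 libraries left out and, when each library was left out in turn, ranged from -0.264 to 0.152, Fbln1 from -0.136 to 0.243, Ltbp1 from -0.0104 to 0.164 and Fn1 from -0.108 to 0.253 (log2); the cause was not tested. Depth limits members with few counts, such as Vcan, Lama3, Tnc, Fbln1, Ltbp2 and Mgp.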
